A study of Mus musculus with 12 samples.

Results

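The change between 1 h and 2 h of 4-hydroxytamoxifen (4OHT) was measured in 6 RNA-sequencing libraries, 3 at each time, out of 12 in the series. Each of the clones a, b and c of a cRAF-ERT2 line gave 1 library at 1 h and 1 at 2 h, so the comparison is made within clones. The members are every gene that could be tested: 14185 of the 25897 symbols in the deposited count table passed the filter on low counts. A gene is said to have risen or fallen when edgeR's quasi-likelihood test of 2 h against 1 h, with the clone as a block, gave an adjusted p under 0.05.

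The cells were mouse embryonic stem cells of the line E14tg2a, on a 129SV background. Every group, untreated cells included, carried cRAF-ERT2, a fusion of the RAF kinase to a tamoxifen-responsive part of the oestrogen receptor, so that 4OHT at 250 nM switches on RAF and, below it, MEK and ERK. All cells had been kept in serum with LIF and 2 µM Chir99021, a GSK3 inhibitor, and for the last 24 h before treatment in serum with LIF and PD173074 at 250 nM, which blocks FGF receptors. All received 5 mM ethynyl uridine 15 min before lysis, and total RNA was depleted of ribosomal RNA. The untreated, 1 h, 2 h and 4 h groups are told apart in the labels by time in 4OHT alone. No vehicle group is among the samples, and the treatment text of the labels names only 0 h and 2 h while titles and design give all 4 times. Whether the cultures of 1 clone were grown separately is not stated, so p-values measure the spread between these libraries.

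ERK acts on transcription in waves. Within minutes it phosphorylates ternary complex factors that sit with SRF on genes such as Fos and Egr1, the immediate-early genes, whose products are transcription factors and whose RNAs are short-lived. Later genes are switched on by those factors or by slower direct routes, and include the phosphatases, Sprouty and Spred proteins that feed back on the pathway. In embryonic stem cells ERK activity is known for driving cells out of naive pluripotency and for making them competent for differentiation.

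The libraries held 24856798 to 28802211 counts at 1 h and 26622520 to 30564977 at 2 h, within the 24213641 to 31435301 of all 12 libraries. Levels are given as CPM, read counts scaled to a common library total, for clones a, b and c in that order, and changes as log2 ratios ± SE. Esr1 reads, which include any from the fused receptor domain, stood at 18.1, 206 and 44.4 CPM at 1 h and at 18.6, 217 and 40.6 CPM at 2 h, a log2 change of 0.0027 ± 0.21 (adjusted p = 0.995), so clone b carried the highest level and clone a the lowest at both times. One symbol stood apart in both groups: Lars2 took 27450.0, 13767 and 14571 CPM at 1 h and 17792, 2344 and 1070.1 CPM at 2 h, a log2 change of −1.63 ± 1.02 (adjusted p = 0.302); its part in the other results was not tested.

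Embryonic stem cell markers kept a summed level of 3460.0 to 3840.0 CPM at 1 h and 3380.0 to 3970.0 CPM at 2 h for 5 of 5 markers. The markers of other cell types summed to at most 11.6 CPM in any of these libraries. In bulk RNA, fewer cells of a type and less RNA per cell cannot be told apart. The 5 primitive endoderm markers summed to 5.14 to 9.61 CPM at 1 h and 3.34 to 8.4 CPM at 2 h, and 6 feeder fibroblast markers to 0.603 to 0.797 and 0.676 to 1.44 CPM, with Postn and Lum at 0. The 5 neural markers summed to 4.41 to 9.57 and 3.73 to 11.6 CPM, with Neurod1 at 0, and 5 two-cell-like markers to at most 0.312 and 0.393 CPM, with Tcstv1 at 0. Trophoblast markers went from 1.33 to 1.49 CPM at 1 h to 2.44 to 5.01 CPM at 2 h, and mesoderm markers went from 5.43 to 5.8 CPM to 6.45 to 7.59 CPM; Cdx2 belongs to the former.

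Between 1 h and 2 h 1011 genes rose, 7.13% of those tested, and 774 fell, 5.46%. Of these, 225 rose and 65 fell by at least 2-fold. The changes ran the same way in all 3 clones for 1009 of the 1011 rises and 773 of the 774 falls. A test with the clone as a block favours such genes, and the share over all tested genes was not counted. Clone a moved least. The median change of the genes that rose was 0.30 in clone a, 0.44 in clone b and 0.42 in clone c. For the genes that fell it was −0.35, −0.56 and −0.51. Over all tested genes the median was −0.013, and for 3415 genes (24.1%) the 1 h and 2 h libraries did not overlap. The first hour, 1 h against untreated cells, had 768 rises (5.41%) and 224 falls (1.58%). At 4 h, in libraries that enter neither side of the second-hour comparison, 867 of the 1011 genes (85.8%) stood above untreated cells and 3 below, and 633 of the 774 (81.8%) stood below and 13 above. Over all tested genes 3722 (26.2%) were above untreated cells at 4 h and 3652 (25.7%) below. The same 3 clones supply all of these libraries.

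These counts rest on pairing libraries within clones. Without the clone block 8 genes rose (Dusp6, Hs3st3b1, Sox8, Pcdh1, Fjx1, Spred1, Zbtb46 and Dusp4) and 1 fell (Amotl2), and Hs3st3b1, Pcdh1, Fjx1 and Zbtb46 are named here after their values were seen. Without the 4 libraries of clone c, 0 genes passed edgeR's test in either direction, although 1031 were higher and 829 lower at an unadjusted p under 0.05. Leaving out all libraries of clone b left 150 rises and 43 falls, and leaving out clone a gave 2103 and 1901. Single libraries mattered as well. No 4 h library was dropped on its own. Statements here and below on single libraries cover those of untreated cells, 1 h and 2 h. Dropping the clone a, b or c library of 1 h left 626, 126 or 182 rises and 471, 48 or 63 falls. Dropping that of 2 h left 684, 167 or 172 rises and 505, 46 or 51 falls, and dropping the untreated library of clone a gave 1863 and 1455. A test against a change of at least 1.5-fold called 81 rises and 3 falls.

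To say which genes start, continue or reverse, the second-hour call was set beside the first-hour call, and the difference between both changes was tested in the same fit. The first-hour and second-hour contrasts share the 1 h libraries with opposite sign, so a high or low 1 h library pushes both, in opposite directions, and the classes are given as counts and values only. Of the second-hour genes, 139 had already risen in the first hour and rose further, 36 had already fallen and fell further, 12 fell after a first-hour rise and 5 rose after a first-hour fall. The remaining 1593 had no call in the first hour. A start was called only where the second-hour change also exceeded the first-hour change in the difference test, and 0 genes met that rule in either direction by edgeR. At an unadjusted p under 0.05 of the difference 368 genes met it upward and 282 downward, DESeq2 called 22 and 10, limma-voom 0 and 0, and the smallest adjusted edgeR p of the difference among the 1593 was 0.0778. They are therefore described as first called in the second hour. Of the 867 among them that rose, 410 had a first-hour log2 change smaller than 0.1 in size.

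**Figure D1:**
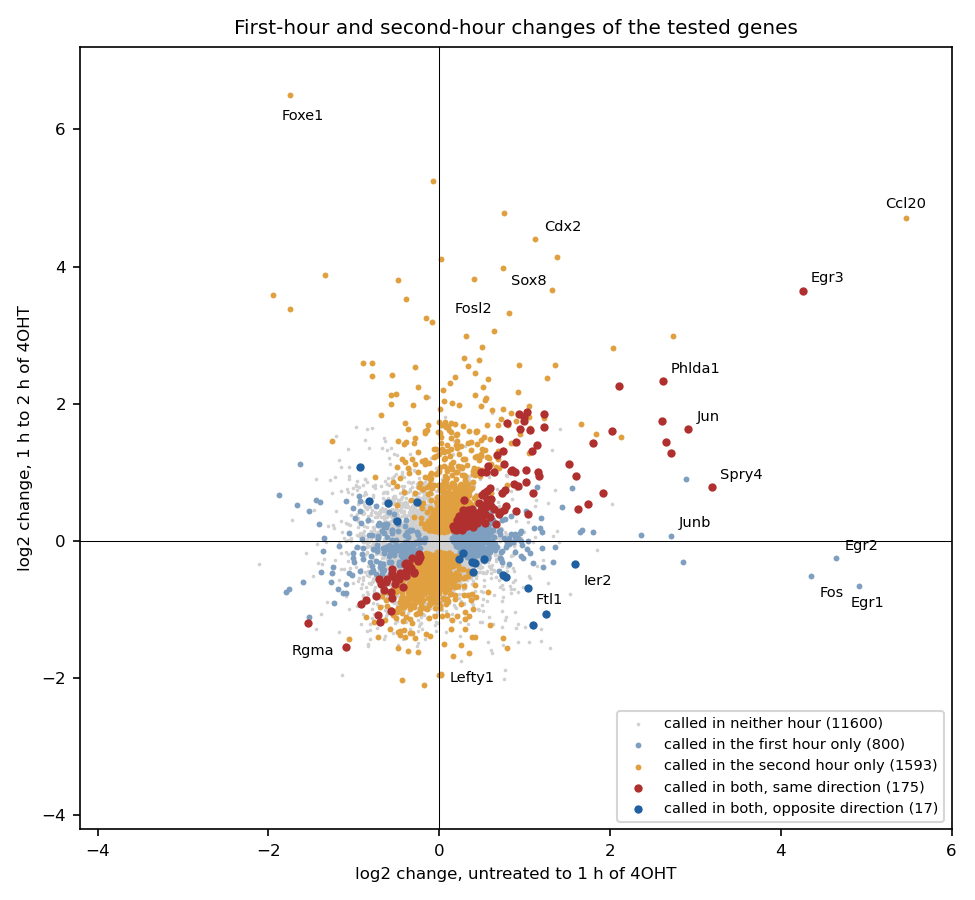
Each point is 1 of 14185 tested genes, with its log2 change from untreated to 1 h on the x axis and from 1 h to 2 h on the y axis; colours give the hour or hours in which edgeR's adjusted p was under 0.05. Egr1, Fos and Egr2 lie far right and just below 0, Egr3, Jun and Phlda1 are high in both hours, and the 1593 genes called in the second hour only are spread along the y axis.

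The genes that reversed after a first-hour rise included, among those averaging at least 1 CPM, Ftl1, Plk2, Btg2, Ppp1r10, Ier2, Hspg2 and Cic. The immediate-early gene Ier2, which encodes a nuclear protein, had risen from 26.1, 34.6 and 34.5 CPM to 78.6, 109.6 and 98.5 CPM, and stood at 57.7, 79.0 and 91.3 CPM at 2 h. Its second-hour log2 change was −0.34 ± 0.075 (adjusted p = 0.0205). All 3 clones were lower at 2 h than at 1 h and the ranges overlapped. The 2 h level was still above untreated cells, the log2 difference being 1.25 ± 0.078 (adjusted p = 4.26e-06). Btg2, an antiproliferative factor that binds the CCR4-NOT deadenylase and is also a p53 target, fell from 43.1, 38.5 and 64.0 CPM to 37.3, 24.4 and 42.6 CPM, a log2 change of −0.50 ± 0.12 (adjusted p = 0.0277). Plk2, a polo-like kinase of the early response to serum, fell from 27.1, 41.0 and 39.8 CPM to 21.7, 27.1 and 25.7 CPM, with a log2 change of −0.53 ± 0.12 (adjusted p = 0.0206). Both had been at 31.5, 20.3 and 36.1 CPM (Btg2) and 19.8, 19.2 and 22.8 CPM (Plk2) in untreated cells, and neither differed from them at 2 h beyond the threshold.

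Other reversals were of genes with varied roles. Ppp1r10, a nuclear targeting subunit of protein phosphatase 1, went from 82.2, 89.0 and 95.3 CPM untreated to 105, 126 and 121 CPM at 1 h and 75.9, 95.2 and 87.3 CPM at 2 h, a second-hour log2 change of −0.45 ± 0.060 (adjusted p = 0.00241). The 2 h libraries were all below the 1 h libraries. Cic, the Capicua repressor whose activity ERK is known to lift, had a log2 change of −0.31 ± 0.075 (adjusted p = 0.0286), from 54.9, 60.3 and 68.3 CPM to 44.2, 47.5 and 56.9 CPM. Hspg2, the basement membrane proteoglycan perlecan, had a log2 change of −0.32 ± 0.073 (adjusted p = 0.0242). Ftl1, a ferritin subunit, had a log2 change of −0.68 ± 0.15 (adjusted p = 0.0206). It has processed pseudogenes, and 34.6% of its exonic length overlaps other genes, so its reads are uncertain. Members named after their values were seen were Dido1 and Phc1 (−0.26 and −0.17) and the rarely read Sebox and 4933408B17Rik, both under 1 CPM in every library. Of the 12, 2 (Ier2 among them) were still above untreated cells at 2 h and 10 were not past the threshold.

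Few reversal calls held when 1 library was dropped. Of the 12 genes, 6, 1 and 1 kept the second-hour call when the clone a, b or c library of 1 h was dropped, and 4, 1 or 2 when that of 2 h was. The omission with the highest adjusted p is named here and in later paragraphs. Ier2, Btg2, Plk2, Hspg2 and Ftl1 lost their calls when the clone b library of 1 h was dropped (adjusted p = 0.138, 0.162, 0.128, 0.142 and 0.140). Cic lost its call when the clone c library of 2 h was dropped (adjusted p = 0.144). Ppp1r10 kept it in all of these.

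The genes that rose after a first-hour fall numbered 5. Zbed5, a zinc finger gene derived from a transposable element, went from 28.7, 25.4 and 27.0 CPM untreated to 24.4, 19.97 and 23.4 CPM at 1 h and 34.4, 31.2 and 34.4 CPM at 2 h. The second-hour log2 change of 0.56 ± 0.066 (adjusted p = 0.00122) separated the 1 h from the 2 h libraries in all clones, and the 2 h level was above untreated cells, the log2 difference being 0.30 ± 0.066 (adjusted p = 0.00472). Prr5l, which encodes a partner of mTOR complex 2, had a log2 change of 0.55 ± 0.16 (adjusted p = 0.0443) and Zfp672 one of 0.29 ± 0.084 (adjusted p = 0.0466). The other 2 were the predicted genes Gm44530 and Gm42791, the latter with 82.9% of its exonic length shared with other genes. Prr5l lost its call when the clone b library of 1 h was dropped (adjusted p = 0.219). Zfp672, Gm44530 and Gm42791 lost their calls when the clone c library of 2 h was dropped (adjusted p = 0.183, 0.118 and 0.173). Zbed5 kept its second-hour call with any single untreated, 1 h or 2 h library dropped. Its first-hour fall was not called in these fits, apart possibly from the one without the untreated library of clone a. In all the others 0 of the 5 were still called as reversing.

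A separate question is which genes changed differently in both hours, whatever their class. The difference test called 20 genes (0.141% of those tested), listed here after their values were seen: Spry4, Ftl1, Egr1, Zbed5, Plk2, Fos, Epha2, Ppp1r10, Ier2, Fam83e, Nlrp12, Egr2, Tpt1, Zfp36, Zfp280b, Id3, Junb, Nckap5l, Pim3 and Setd1b. In 18 of the 20 the second-hour change was the smaller in size. DESeq2 called 89. Dropping the clone a, b or c library of 1 h left 13, 4 or 5, dropping any library of 2 h left 7, and dropping the untreated library of clone a gave 37.

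**Figure D2:**
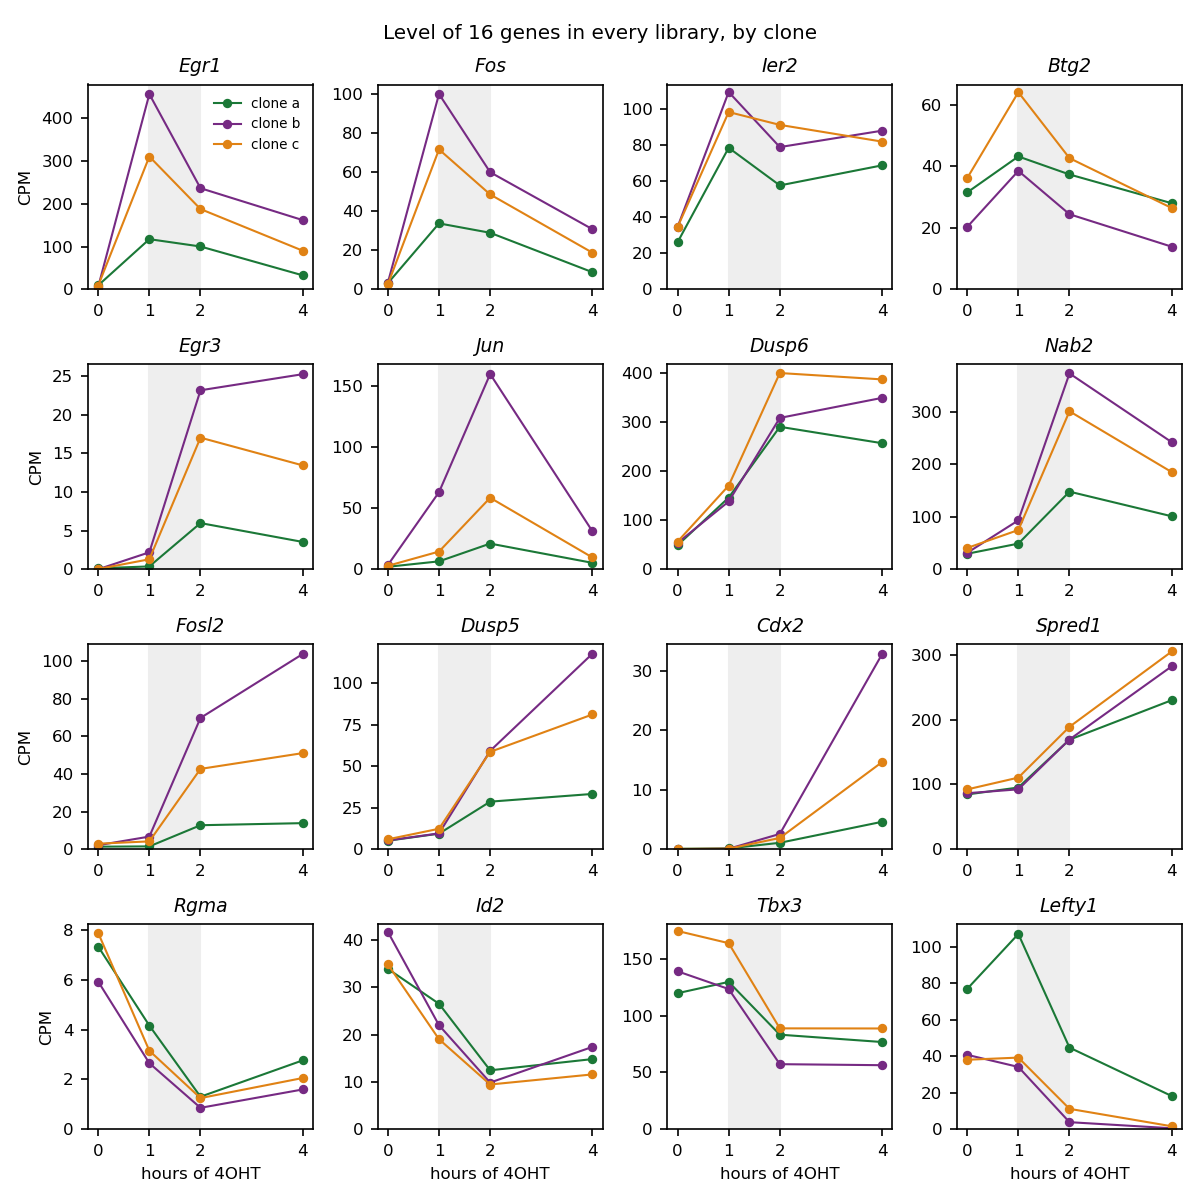
CPM of 16 genes (y axis) in every library against hours of 4OHT (x axis), 1 line per clone, with the second hour shaded. Egr1 and Fos peak at 1 h in all 3 clones, Egr3, Jun and Nab2 are higher at 2 h than at 1 h, and Rgma, Id2, Tbx3 and Lefty1 are lower.

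The upstream sequences of genes from different classes are shown because they hold the letters that serum and growth factor signalling is known to act through. The 250 bases before the RefSeq start (GRCm38.p6) were searched on both strands for the CRE (TGACGTCA), the AP-1 site (TGANTCA), the ETS site CCGGAAG, the EGR site GCGNGGGCG, the TATA box (TATAAA) and the SRF CArG box, for 10861 tested genes with an entry. Btg2 and Plk2, which rose and reversed, each have a CRE, Egr2, which rose in the first hour and did not pass the test in the second, a CArG box, Dusp5, first called in the second hour, 2 abutting CArG boxes, and Plaur, which continued, an AP-1 site. The stretches run 5′ to 3′ on the gene's strand with only those sites in capitals (the Btg2 stretch also ends in an EGR site, left in lower case, and the windows of 3 other RefSeq starts of Egr2 hold a different CArG box, not shown); they lie at chr1:134079278-134079357, minus strand for Btg2, chr13:110394946-110395025, plus strand for Plk2, chr10:67537459-67537538, plus strand for Egr2, chr19:53529033-53529112, plus strand for Dusp5 and chr7:24462377-24462456, plus strand for Plaur.
Btg2: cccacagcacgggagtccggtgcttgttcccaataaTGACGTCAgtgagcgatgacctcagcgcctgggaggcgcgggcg
Plk2: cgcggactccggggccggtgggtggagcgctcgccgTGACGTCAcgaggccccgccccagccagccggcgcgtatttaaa
Egr2: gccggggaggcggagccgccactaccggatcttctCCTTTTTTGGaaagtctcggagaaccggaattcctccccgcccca
Dusp5: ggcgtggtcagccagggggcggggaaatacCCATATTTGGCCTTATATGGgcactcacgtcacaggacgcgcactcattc
Plaur: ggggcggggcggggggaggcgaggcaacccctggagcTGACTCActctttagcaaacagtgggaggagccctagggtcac

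Counted in bases before the start, the sites begin at 166 in Btg2, 62 in Plk2, 72 in Egr2, 82 and 72 in Dusp5 and 69 in Plaur. A CRE was found for 2 of the 9 genes that reversed after a rise and have an entry (22.2%), and for 2.93% of all tested genes. An AP-1 site was found for 3 of the 100 that continued upward (3.0%), against 5.68% of all tested genes. A CArG box was found for 2.1% of the rises first called in the second hour. It was found for 2.22% of the genes that rose in the first hour only, against 1.39% of all tested genes. Among the 155 genes with an entry that rose by at least 2-fold in the second hour, 3.87% had a CArG box, 11.0% an AP-1 site, 4.52% the ETS site, 15.5% the EGR site and 11.6% the TATA box, against 1.39%, 5.68%, 14.7%, 10.5% and 8.02% of all tested genes. The EGR site was found for 15.2% of all genes that rose and 14.6% of those that fell. Among all 769 genes with an entry that rose, 1.95% had a CArG box, 6.11% an AP-1 site, 17.3% the ETS site and 6.63% the TATA box. Among the 603 that fell the shares were 1.82%, 5.47%, 9.12% and 7.13%. These shares describe letters in a window and were not tested.

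Among immediate-early transcription factors, Egr1 and Fos measured highest at 1 h in every clone and others rose on to 2 h. Of 22 tested members, 11 rose and 1 (Ier2) fell in the second hour (median log2 change 0.53, against −0.013 over all tested genes), while 13 had risen in the first hour (median 1.11). For comparison with this and later lists, 7.13% of all tested genes rose and 5.46% fell in the second hour. In the first hour 5.41% rose and 1.58% fell. Egr1, a zinc finger factor, stood at 9.28, 5.93 and 8.79 CPM untreated, 117, 456 and 310.1 CPM at 1 h and 100.03, 236 and 187 CPM at 2 h. Its second-hour log2 change of −0.65 ± 0.33 did not pass the test (adjusted p = 0.195), with all 3 clones lower at 2 h and overlapping ranges. Fos, a partner in the AP-1 dimer, stood at 33.7, 99.87 and 71.5 CPM and 28.9, 59.9 and 48.5 CPM, a log2 change of −0.52 ± 0.19 that also did not pass (adjusted p = 0.0982).

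Both were among the 20 genes whose second-hour change differed from the first, with adjusted p of 0.00326 for Egr1 and 0.000217 for Fos. Egr2 stood at 3.35, 11.1 and 6.38 CPM at 1 h and 3.45, 8.11 and 5.34 CPM at 2 h, with a second-hour log2 change of −0.25 ± 0.19 (adjusted p = 0.414), and Junb at 31.9, 66.7 and 61.4 CPM and 26.7, 61.7 and 90.2 CPM, a change of 0.079 ± 0.16 (adjusted p = 0.782). Junb was lower at 2 h in clones a and b and higher in clone c, and its sign turned to −0.13 with the clone c library of 2 h dropped and to −0.072 with that of 1 h dropped.

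Egr3 continued. It encodes a further EGR factor, lies at chr14:70077203-70082614 on the plus strand (GRCm38), and went from 0.123, 0 and 0.0346 CPM untreated to 0.367, 2.19 and 1.29 CPM at 1 h and 5.97, 23.2 and 17.0 CPM at 2 h. The second-hour log2 change was 3.65 ± 0.28 (adjusted p = 0.000112), a 12.5-fold rise, with no overlap between 1 h and 2 h. Jun, the other AP-1 partner, continued from 6.45, 62.9 and 14.4 CPM to 20.9, 159 and 58.3 CPM, with a log2 change of 1.63 ± 0.27 (adjusted p = 0.00639). Clone b held more Jun at 1 h than clones a and c at 2 h, so the ranges overlapped although every clone rose. At 4 h Jun stood at 5.22, 31.0 and 9.60 CPM, whereas Egr3 stood at 3.53, 25.2 and 13.4 CPM.

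The FOS family members other than Fos rose in the second hour without a first-hour call. Fosl2 went from 1.47, 6.68 and 4.14 CPM to 12.7, 69.7 and 42.6 CPM, a log2 change of 3.32 ± 0.26 (adjusted p = 0.000112). Fosb had a log2 change of 1.79 ± 0.29 (adjusted p = 0.00539) and Fosl1 one of 1.43 ± 0.29 (adjusted p = 0.0146), the last with 57.2% of its exonic length shared with other genes. Klf10, a TGF-beta-inducible repressor, went from 78.0, 85.0 and 79.2 CPM to 155, 307 and 277 CPM, with a log2 change of 1.57 ± 0.20 (adjusted p = 0.00199), after untreated levels of 97.0, 76.5 and 93.9 CPM. Fosl2 and Klf10 did not overlap between 1 h and 2 h.

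Myc and the orphan nuclear receptor Nr4a1 rose in both hours. Myc went from 21.5, 26.7 and 31.1 CPM to 75.2, 82.8 and 106 CPM and then 97.7, 121 and 171 CPM, a second-hour log2 change of 0.54 ± 0.13 (adjusted p = 0.0252). Nr4a1 had a log2 change of 0.60 ± 0.078 in the first hour and 0.61 ± 0.077 (adjusted p = 0.00160) in the second. Id1, an inhibitor of bHLH factors, rose with a log2 change of 1.61 ± 0.20 (adjusted p = 0.00158) from 18.8, 24.7 and 25.3 CPM to 41.3, 73.9 and 104 CPM, a rise seen without overlap. Jun lost its call when the clone b library of 2 h was dropped (adjusted p = 0.0604). Fosb and Fosl1 lost their calls when the clone b library of 1 h was dropped (adjusted p = 0.0673 and 0.123). Myc lost its call when the clone c library of 2 h was dropped (adjusted p = 0.150). No single library did so for Egr3, Fosl2, Klf10, Nr4a1 or Id1.

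The other immediate-early genes, which encode enzymes and cytoplasmic proteins rather than transcription factors, had 5 of 18 tested members rising and 2 falling (median log2 change 0.16). Those that fell are the reversing Btg2 and Plk2. Arc, a synaptic and cytoskeletal protein of the early response, rose from 67.5, 342 and 201 CPM to 199.5, 813 and 586 CPM, with a log2 change of 1.44 ± 0.24 (adjusted p = 0.00646). Ptgs2, the inducible cyclooxygenase, rose from 12.5, 25.4 and 18.5 CPM to 35.5, 79.4 and 58.5 CPM, with a log2 change of 1.61 ± 0.30 (adjusted p = 0.00955). Both continued from the first hour, as did Plk3 with 0.95 ± 0.24 (adjusted p = 0.0322), and Trib1, a pseudokinase that binds MEK, rose with a log2 change of 1.12 ± 0.21 (adjusted p = 0.0102) with no first-hour call. Arc and Plk3 lost their calls when the clone c library of 2 h was dropped (adjusted p = 0.0517 and 0.168). Ptgs2 and Trib1 lost their calls when the clone b library of 1 h was dropped (adjusted p = 0.0795 and 0.0713).

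Of the ERK feedback inhibitors, 11 of 21 tested members rose in the second hour and 0 fell (median log2 change 0.40), against 6 rises in the first hour (median 0.17). Dusp6, the cytoplasmic phosphatase that removes the activating phosphates from ERK, climbed from 48.9, 53.6 and 56.3 CPM untreated to 146, 138 and 171 CPM at 1 h and 291, 309 and 400.5 CPM at 2 h. Its second-hour log2 change of 1.13 ± 0.088 (adjusted p = 0.000112) followed a first-hour change of 1.52 ± 0.091, the 1 h and 2 h libraries did not overlap, and the level at 4 h was 257, 349.8 and 387 CPM.

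Dusp4 and Dusp5 encode nuclear phosphatases of the same family. Dusp4 rose from 10.3, 9.26 and 8.28 CPM to 25.1, 40.2 and 34.1 CPM, with a log2 change of 1.81 ± 0.21 (adjusted p = 0.00122), with 52.3, 121 and 84.9 CPM at 4 h. Dusp5, specific for ERK, rose from 9.35, 9.51 and 12.3 CPM to 28.6, 59.3 and 58.7 CPM, with a log2 change of 2.17 ± 0.27 (adjusted p = 0.00163), with 22.1% of its exonic length shared with other genes. Dusp2 rose from a low level of 0.122, 0.283 and 0.228 CPM to 0.957, 2.36 and 1.99 CPM, with a log2 change of 3.06 ± 0.29 (adjusted p = 0.000329). None of the 3 overlapped between the times, where 24.1% of all tested genes did not, and clone a was the lowest at 2 h in each. Dusp1 had a log2 change of 0.49 ± 0.19 and did not pass the test (adjusted p = 0.101), after a first-hour rise of 1.43 ± 0.20.

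Sprouty and Spred proteins block signalling at the level of RAS and RAF. Spred1 went from 84.5, 86.4 and 92.3 CPM untreated to 95.2, 92.4 and 111 CPM at 1 h, without a first-hour call, and to 169, 169 and 189 CPM at 2 h, a log2 change of 0.83 ± 0.065 (adjusted p = 0.000112). Its adjusted p for the difference between hours, 0.0778, was the smallest of the genes first called in the second hour. Spry4 had the opposite order: it rose from 43.1, 51.0 and 54.6 CPM to 254, 670.5 and 569 CPM in the first hour and to 478, 1054 and 985 CPM in the second, and its second-hour log2 change of 0.78 ± 0.18 (adjusted p = 0.0252) was smaller than the first-hour change of 3.19 ± 0.20, a difference that passed the test (adjusted p = 0.0140). Spry2 rose with a log2 change of 0.39 ± 0.089 (adjusted p = 0.0225) and Il17rd, a membrane antagonist of FGF signalling also called Sef, with 0.40 ± 0.059 (adjusted p = 0.00362). Spry4 and Spry2 lost their calls when the clone c library of 2 h was dropped (adjusted p = 0.132 and 0.121).

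ETS factors and targets of the Capicua repressor had 13 of 26 tested members rising and 3 falling (median log2 change 0.25). Etv4, an ETS factor that ERK relieves from Capicua, rose from 20.5, 24.5 and 31.2 CPM to 42.9, 49.2 and 60.0 CPM, with a log2 change of 1.00 ± 0.066 (adjusted p = 5.85e-05), with 1 h and 2 h apart. Etv5, its close relative, rose with a log2 change of 0.22 ± 0.051 (adjusted p = 0.0246) from 356, 403 and 368 CPM. The cyclin gene Ccnd2 rose from 24.0, 11.4 and 15.1 CPM to 49.6, 34.0 and 45.6 CPM, with a log2 change of 1.39 ± 0.16 (adjusted p = 0.00122), with no first-hour call. Plaur, the urokinase receptor, continued from 31.6, 81.5 and 55.7 CPM to 94.6, 318 and 217 CPM, with a log2 change of 1.85 ± 0.21 (adjusted p = 0.000885). The 3 that fell were Elf3, Cic and Epha4. Etv5 lost its call when the clone b library of 2 h was dropped (adjusted p = 0.156).

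Both corepressors that bind EGR factors rose. Nab2, which EGR proteins are known to induce and which then represses them, rose from 48.8, 93.0 and 74.6 CPM to 148, 373 and 301 CPM, with a log2 change of 1.88 ± 0.18 (adjusted p = 0.000329), and stood at 101, 242 and 185 CPM at 4 h; 42.2% of its exonic length overlaps other genes. Nab1 rose from 22.7, 39.7 and 25.3 CPM to 67.7, 197 and 123 CPM, with a log2 change of 2.08 ± 0.27 (adjusted p = 0.00207), with no first-hour call. Neither overlapped between 1 h and 2 h. In the list of EGR feedback genes and corepressors as a whole, 3 of 11 tested members rose and 3 fell.

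Continuation upward held for 139 genes, of which 33 rose by at least 2-fold in the second hour; their median change was 0.44 in the second hour and 0.49 in the first, and 138 were above untreated cells at 4 h. Beside Egr3, Nab2, Plaur and Dusp4, the largest were Phlda1, S100a3, Sfn and Gsg1. Phlda1, a pleckstrin-homology protein of the ERK response, rose from 1.51, 3.75 and 2.70 CPM to 4.86, 19.6 and 16.7 CPM, with a log2 change of 2.33 ± 0.31 (adjusted p = 0.00218), and 33.0% of its exonic length overlaps other genes. Sfn, the 14-3-3 sigma protein, rose from 16.7, 35.1 and 16.8 CPM to 39.6, 153 and 73.6 CPM, with a log2 change of 1.85 ± 0.19 (adjusted p = 0.000533), and reached 86.3, 341 and 159.6 CPM at 4 h. S100a3 had a log2 change of 2.26 ± 0.31 (adjusted p = 0.00249) and Gsg1 one of 1.75 ± 0.22 (adjusted p = 0.00167). The 139 became 40, 20 or 37 when the clone a, b or c library of 1 h was dropped. They became 42 or 37 for the clone b or c library of 2 h, and 462, 49 or 64 for the clone a, b or c library of untreated cells. In all of the 8 named, picked by the size of this change, the 2 h libraries lay above the 1 h libraries. Over all tested genes 24.1% did not overlap, in either direction. No single untreated, 1 h or 2 h library decided a second-hour call of the 8, but continuation also needs the first-hour call.

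Continuation downward held for 36 genes, 35 of them below untreated cells at 4 h, with median changes of −0.54 in the second hour and −0.52 in the first. The 36 became 4, 1 or 4 when the clone a, b or c library of 1 h was dropped, 4 for that of clone b or c at 2 h, and 184, 1 or 7 for those of untreated cells. Rgma, a co-receptor for BMP ligands, fell from 7.34, 5.93 and 7.89 CPM untreated to 4.16, 2.65 and 3.15 CPM at 1 h and 1.30, 0.855 and 1.25 CPM at 2 h, a second-hour log2 change of −1.54 ± 0.17 (adjusted p = 0.000666). Id2, an inhibitor of bHLH factors, fell from 26.5, 21.99 and 19.0 CPM to 12.4, 9.85 and 9.44 CPM, with a log2 change of −1.09 ± 0.13 (adjusted p = 0.00143), the opposite direction to Id1. Spic, an ETS family factor, fell from 12.8, 8.06 and 13.9 CPM to 6.47, 3.93 and 6.77 CPM, with a log2 change of −1.01 ± 0.12 (adjusted p = 0.00135). Dhrs3, a retinaldehyde reductase, fell with a log2 change of −1.18 ± 0.19 (adjusted p = 0.00536), Nlrp9c with −1.20 ± 0.33 (adjusted p = 0.0392), Il7 with −0.91 ± 0.26 (adjusted p = 0.0460), the calcium pump gene Atp2b2 with −0.86 ± 0.20 (adjusted p = 0.0240) and the corepressor gene Runx1t1 with −0.84 ± 0.15 (adjusted p = 0.00799). Nlrp9c, Il7 and Runx1t1 lost their calls when the clone c library of 2 h was dropped (adjusted p = 0.173, 0.190 and 0.0659). Atp2b2 lost its call when the clone b library of 1 h was dropped (adjusted p = 0.135). Rgma, Id2, Spic and Dhrs3 kept their second-hour calls in those fits. Continuation also needs the first-hour call, and only 1 gene in all continued downward without the clone b library of 1 h.

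Among genes averaging at least 1 CPM over the 12 libraries, the largest rises of the second hour were of genes at low levels at 1 h. Foxe1, a forkhead factor, had 1 count in the 3 libraries at 1 h and 128 at 2 h, where its levels were 0.268, 2.87 and 1.32 CPM; the ratio, scaled for depth, was 119 with a 95% counting interval of 21.1 to 4750.0. Cdx2, the caudal homeobox factor of trophoblast and posterior mesoderm (chr5:147300805-147307270, minus strand), went from 0.122, 0.0707 and 0.0760 CPM to 1.07, 2.57 and 1.89 CPM and to 4.61, 32.8 and 14.7 CPM at 4 h, a second-hour log2 change of 4.40 ± 0.60 (adjusted p = 0.00253). Sox8, a SOXE factor, rose from 0.490, 0.672 and 0.342 CPM to 4.29, 10.02 and 9.97 CPM, with a log2 change of 3.98 ± 0.26 (adjusted p = 5.85e-05), and stood lower at 4 h, at 1.69, 4.17 and 3.52 CPM. All 3 were higher at 2 h than at 1 h in every clone, as the rule for picking them required, and clone a had the lowest 2 h level of each.

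Secreted and signalling proteins were among them. Ccl20, a chemokine, was not counted in untreated cells and went from 0.245, 0.283 and 0.114 CPM at 1 h to 2.60, 9.10 and 4.13 CPM at 2 h and 11.4, 99.51 and 34.9 CPM at 4 h, a second-hour log2 change of 4.71 ± 0.46 (adjusted p = 0.00105). Nppb, the precursor of B-type natriuretic peptide, rose from 0.531, 1.48 and 1.71 CPM to 3.29, 57.9 and 14.0 CPM, with a log2 change of 4.14 ± 0.58 (adjusted p = 0.00302), with a wide gap between clones b and a at 2 h. Cyth4, an exchange factor for ARF GTPases, rose from 0.327, 0.247 and 0.266 CPM to 2.18, 15.7 and 6.63 CPM, with a log2 change of 4.78 ± 0.43 (adjusted p = 0.000255). Rrad, a small GTPase that inhibits calcium channels, rose with a log2 change of 3.66 ± 0.29 (adjusted p = 0.000112), Gpr142, an amino-acid-sensing receptor, with 3.81 ± 0.37 (adjusted p = 0.000353) and Ankrd63 with 3.82 ± 0.38 (adjusted p = 0.000479). With Egr3 these complete the 10 largest rises. Each kept its call with any single untreated, 1 h or 2 h library left out. Only 1 (Sox8) did so without the clone block and 0 did without clone c. Without the 4 h group 9 of the 10 kept their calls, as with the 1 h and 2 h libraries alone. Foxe1 did not enter the test in those fits.

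**Figure D3:**
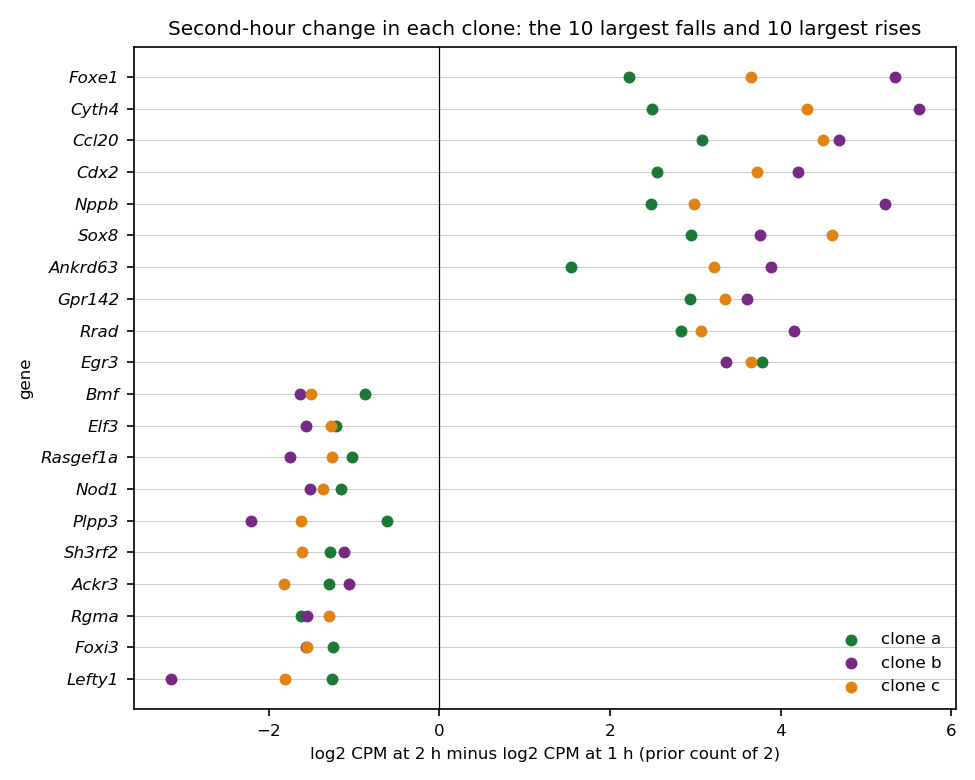
Second-hour change of log2 CPM (x axis) of the 10 largest rises and 10 largest falls (y axis), 1 point per clone. All points of a gene lie on 1 side of 0, as the rule for picking these genes required. Clone a has the smallest rise for 9 of the 10 rises.

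The secreted growth factors, cytokines and proteases had 6 of 22 tested members rising and 2 falling (median log2 change 0.27). Besides Ccl20, Nppb and Plaur, Vgf rose with a log2 change of 2.57 ± 0.40 (adjusted p = 0.00504) and Pdgfa with 0.40 ± 0.063 (adjusted p = 0.00526), with 26.1% of the Pdgfa exonic length shared with other genes, and Hbegf, a ligand of the EGF receptor, went from 40.9, 79.8 and 73.5 CPM to 99.92, 309.5 and 239 CPM, with 1.67 ± 0.27 (adjusted p = 0.00596). Fgf4, the main FGF ligand of naive embryonic stem cells, fell from 397, 514 and 421 CPM to 269, 253 and 231 CPM, with a log2 change of −0.83 ± 0.13 (adjusted p = 0.00536), without overlap, and the other fall was Lif, from 1.88, 2.72 and 2.05 CPM to 1.23, 0.718 and 1.18 CPM, with −1.10 ± 0.26 (adjusted p = 0.0262). Vgf, Pdgfa, Hbegf and Lif lost their calls when the clone b library of 1 h was dropped (adjusted p = 0.0713, 0.0550, 0.0582 and 0.151).

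Receptors and adhesion proteins had 3 of 18 tested members rising and 5 falling (median log2 change −0.12). Epha2, an ephrin receptor, rose from 414, 697 and 593 CPM to 529.6, 946 and 883 CPM, with 0.46 ± 0.11 (adjusted p = 0.0238), less than its first-hour log2 change of 1.62 ± 0.11 (adjusted p of the difference = 0.0422). Tnfrsf12a, the TWEAK receptor, rose with a log2 change of 1.75 ± 0.21 (adjusted p = 0.00139). Fgfr1, the main FGF receptor of these cells, fell from 63.3, 55.8 and 66.1 CPM to 48.5, 42.2 and 48.9 CPM, with a log2 change of −0.41 ± 0.095 (adjusted p = 0.0242), and Lrig1 and Lrig3, membrane proteins of which Lrig1 restrains EGF receptors, fell with −0.44 ± 0.094 (adjusted p = 0.0175) and −0.58 ± 0.13 (adjusted p = 0.0207). Epha2 and Fgfr1 lost their calls when the clone c library of 2 h was dropped (adjusted p = 0.143 and 0.137). Lrig1 and Lrig3 lost their calls when the clone b library of 1 h was dropped (adjusted p = 0.114 and 0.133).

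By the same filter, the largest falls were smaller than the largest rises. Lefty1, a secreted inhibitor of Nodal (chr1:180935022-180938400, plus strand), fell from 107, 34.1 and 39.2 CPM to 44.7, 3.80 and 11.1 CPM, with a log2 change of −1.94 ± 0.49 (adjusted p = 0.0319). Clone a held more at 2 h than clones b and c at 1 h, so the ranges overlapped, and the levels at 4 h were 18.1, 0.441 and 1.54 CPM. Ackr3, a scavenging chemokine receptor, fell from 5.84, 3.4998 and 4.98 CPM to 2.34, 1.64 and 1.35 CPM, with a log2 change of −1.43 ± 0.35 (adjusted p = 0.0283). Plpp3, a lipid phosphatase, fell from 20.4, 20.6 and 19.7 CPM to 13.3, 4.41 and 6.34 CPM, with a log2 change of −1.40 ± 0.27 (adjusted p = 0.0109).

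Bmf, a BH3-only apoptosis activator, fell from 45.6, 37.8 and 33.7 CPM to 24.9, 12.2 and 11.8 CPM, with a log2 change of −1.34 ± 0.31 (adjusted p = 0.0227). Elf3, an epithelial ETS factor, fell with a log2 change of −1.34 ± 0.16 (adjusted p = 0.00142), the forkhead gene Foxi3 with −1.56 ± 0.39 (adjusted p = 0.0306), Nod1, a sensor of bacterial peptidoglycan, with −1.40 ± 0.22 (adjusted p = 0.00496), Sh3rf2, a ubiquitin ligase, with −1.41 ± 0.22 (adjusted p = 0.00453), and Rasgef1a, a RAS-family exchange factor, with −1.38 ± 0.18 (adjusted p = 0.00218). Together with Rgma these are the 10 largest falls. Apart from Lefty1 none overlapped between 1 h and 2 h, but they were picked by the size of this change. Over all tested genes 24.1% did not overlap, in either direction. Lefty1 and Foxi3 lost their calls when the clone b library of 2 h was dropped (adjusted p = 0.152 and 0.142). Ackr3 and Plpp3 lost their calls when the clone c library of 2 h was dropped (adjusted p = 0.145 and 0.0813). Bmf lost its call when the clone b library of 1 h was dropped (adjusted p = 0.127). The other 5 kept their calls in those fits, and 0 of the 10 did without the clone block or without clone c.

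Of the naive pluripotency genes, 4 of 22 tested rose and 6 fell in the second hour, with a median change of −0.026. Tbx3, a T-box factor of the naive network, fell from 130.0, 124 and 164 CPM to 83.4, 57.3 and 88.9 CPM, with a log2 change of −0.87 ± 0.11 (adjusted p = 0.00205), after no first-hour call and without overlap. Prdm14, a repressor of differentiation genes, fell from 50.8, 39.2 and 47.8 CPM to 30.2, 14.6 and 20.2 CPM, with −1.13 ± 0.22 (adjusted p = 0.0112). Klf2 fell with a log2 change of −0.69 ± 0.20 (adjusted p = 0.0465) and Tfcp2l1 with −0.31 ± 0.092 (adjusted p = 0.0485), and the other falls were Fgf4 and Spic. In the other direction Klf5 rose from 181, 230.2 and 236 CPM to 253, 301 and 333 CPM, with a log2 change of 0.46 ± 0.079 (adjusted p = 0.00756), and the remaining rises were Zfp42, Gbx2 and Manba. Prdm14 and Tfcp2l1 lost their calls when the clone b library of 1 h was dropped (adjusted p = 0.0825 and 0.255). Klf2 lost its call when the clone b library of 2 h was dropped (adjusted p = 0.214). Klf5 lost its call when the clone c library of 2 h was dropped (adjusted p = 0.0627).

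The core factors did not pass the test in the second hour. Nanog stood at 665, 832 and 853 CPM at 1 h and 565, 713 and 744 CPM at 2 h, a log2 change of −0.22 ± 0.11 (adjusted p = 0.206), lower in every clone. Klf4 had a log2 change of −0.59 ± 0.23 (adjusted p = 0.106), with the 3 libraries of 2 h below those of 1 h. Esrrb had a log2 change of −0.12 ± 0.11, Pou5f1 one of 0.13 ± 0.067 and Sox2 one of −0.050 ± 0.092 (adjusted p = 0.506, 0.222 and 0.752). At 4 h, Nanog stood below untreated cells with a log2 change of −1.30 ± 0.11 (adjusted p = 1.01e-05) and Klf4 with −1.07 ± 0.23 (adjusted p = 0.00302).

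Formative epiblast genes had 4 of 18 tested members rising and 0 falling (median log2 change 0.19). Pou3f1, the POU factor also called Oct6, rose from 2.16, 2.33 and 1.56 CPM to 3.56, 9.68 and 5.84 CPM, with a log2 change of 1.61 ± 0.23 (adjusted p = 0.00325). Sox4 rose with a log2 change of 1.14 ± 0.19 (adjusted p = 0.00687), with 54.6% of its exonic length shared with other genes, and the de novo methyltransferase gene Dnmt3a with 0.53 ± 0.093 (adjusted p = 0.00756); the fourth is Etv5. General pluripotency genes had 4 rises (19.0%) and 3 falls (14.3%) among 21 tested. Of primitive streak and mesoderm genes 2 of 13 tested rose (15.4%, where 7.13% of all tested genes did), Cdx2 and Evx1. Evx1, a homeobox gene of the streak, went from 2.00, 3.005 and 1.79 CPM to 3.79, 7.46 and 6.91 CPM, with a log2 change of 1.40 ± 0.20 (adjusted p = 0.00301). T (brachyury) had a log2 change of 0.85 ± 0.34 and did not pass (adjusted p = 0.117), although its 2 h libraries lay above its 1 h libraries. In the primitive endoderm list 2 of 17 rose (11.8%) and 1 fell (5.88%), against 7.13% and 5.46% of all tested genes. Gata6 had a log2 change of −0.33 ± 0.33 (adjusted p = 0.537). Sox4 and Dnmt3a lost their calls when the clone b library of 1 h was dropped (adjusted p = 0.0644 and 0.0704).

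BMP and Nodal genes moved in both directions. Of 17 tested BMP and ID genes (median log2 change 0.083) 5 rose and 3 fell. Bmp4, a BMP ligand, rose in both hours, from 16.6, 36.2 and 22.1 CPM to 35.5, 67.5 and 53.5 CPM and 77.0, 163 and 153 CPM, the second-hour log2 change being 1.31 ± 0.11 (adjusted p = 0.000160). Bmp2 rose from 0.286, 0.354 and 0.418 CPM to 0.881, 1.30 and 1.64 CPM, with a log2 change of 1.84 ± 0.26 (adjusted p = 0.00328). Msx1, a homeobox target of BMP, rose with a log2 change of 1.90 ± 0.40 (adjusted p = 0.0168), while the falls were Id2, Smad6 and Rgma. Among 15 tested Nodal and activin genes (median log2 change 0.015) 4 rose, with Skil, a repressor of SMADs, at 0.71 ± 0.11 (adjusted p = 0.00416), and Lefty1 fell. The KLF family had 4 rises and 4 falls among 12 tested: Klf5, Klf6, Klf10 and Klf16 rose, and Klf2, Klf3, Klf11 and Klf13 fell. Of these 8, Klf10 kept its call whichever single library was dropped, and the other 7 lost theirs when the clone b library of 1 h was dropped. Msx1 lost its call when the clone b library of 1 h was dropped (adjusted p = 0.127).

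Of 30 tested ribosome biogenesis genes 12 rose and 0 fell, with a median log2 change of 0.16, and all 12 rises lost their calls when the clone b library of 1 h was dropped. Nip7 had a log2 change of 0.35 ± 0.057 (adjusted p = 0.00588), Rrn3, which recruits RNA polymerase I, one of 0.31 ± 0.058 (adjusted p = 0.00967), and Wdr43 one of 0.32 ± 0.059 (adjusted p = 0.0102). Of 22 tested sterol synthesis genes 10 rose and 0 fell, with a median log2 change of 0.20, and all 10 likewise lost their calls without that library. Cyp51, the lanosterol demethylase, rose from 97.5, 93.3 and 119.7 CPM to 138, 140.4 and 179 CPM, with a log2 change of 0.56 ± 0.11 (adjusted p = 0.0135), and Msmo1 with 0.43 ± 0.10 (adjusted p = 0.0253). Nuclear-encoded ribosomal proteins had 3 rises among 24 tested in the second hour (12.5%, against 7.13% of all tested genes). In the first hour 14 rose, where 5.41% of all tested genes did. Nip7, Rrn3 and Wdr43 lost their calls when the clone b library of 1 h was dropped (adjusted p = 0.0607, 0.0853 and 0.0817). Cyp51 and Msmo1 lost their calls when the clone c library of 2 h was dropped (adjusted p = 0.0990 and 0.143).

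Of 19 tested p53 targets 5 fell and 1 rose (median log2 change −0.14), the falls being Sesn1, Zmat3, Ei24 and the reversing Plk2 and Btg2. Of 21 integrated stress response genes (median log2 change 0.12) 5 rose, Atf4 with 0.36 ± 0.065 (adjusted p = 0.00879), and 1 fell. Of 21 mitosis genes (median log2 change 0.15) 5 rose, Kif20b with 0.29 ± 0.052 (adjusted p = 0.00854), and 0 fell. Of 18 SRF and cytoskeleton genes (median log2 change 0.014) 1 rose and 0 fell in the second hour, against 7 rises in the first; 1 of 18 is 5.56%, near the 7.13% of all tested genes that rose in the second hour, where 5.41% rose in the first. Glycolysis had 3 rises (15.0%), Slc2a1 the largest with 0.53 ± 0.14 (adjusted p = 0.0325), and 1 fall (5.0%) among 20. Members of the RAF, MEK and ERK pathway itself had 1 rise (Shc1) and 1 fall (Ksr1) among 24 (4.17% each). The 13 oestrogen response genes had 1 rise (7.69%) and 2 falls (15.4%). Of all tested genes 7.13% rose and 5.46% fell. The 5 p53 target falls, the 5 integrated stress response rises and the 5 mitosis rises all lost their calls when the clone b library of 1 h was dropped. Atf4, Kif20b and Ksr1 lost their calls when the clone c library of 2 h was dropped (adjusted p = 0.0726, 0.0726 and 0.0784). Slc2a1, Shc1, Zmat3 and Ei24 lost their calls when the clone b library of 1 h was dropped (adjusted p = 0.160, 0.170, 0.129 and 0.220). Sesn1 lost its call when the clone b library of 2 h was dropped (adjusted p = 0.152).

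**Figure D4:**
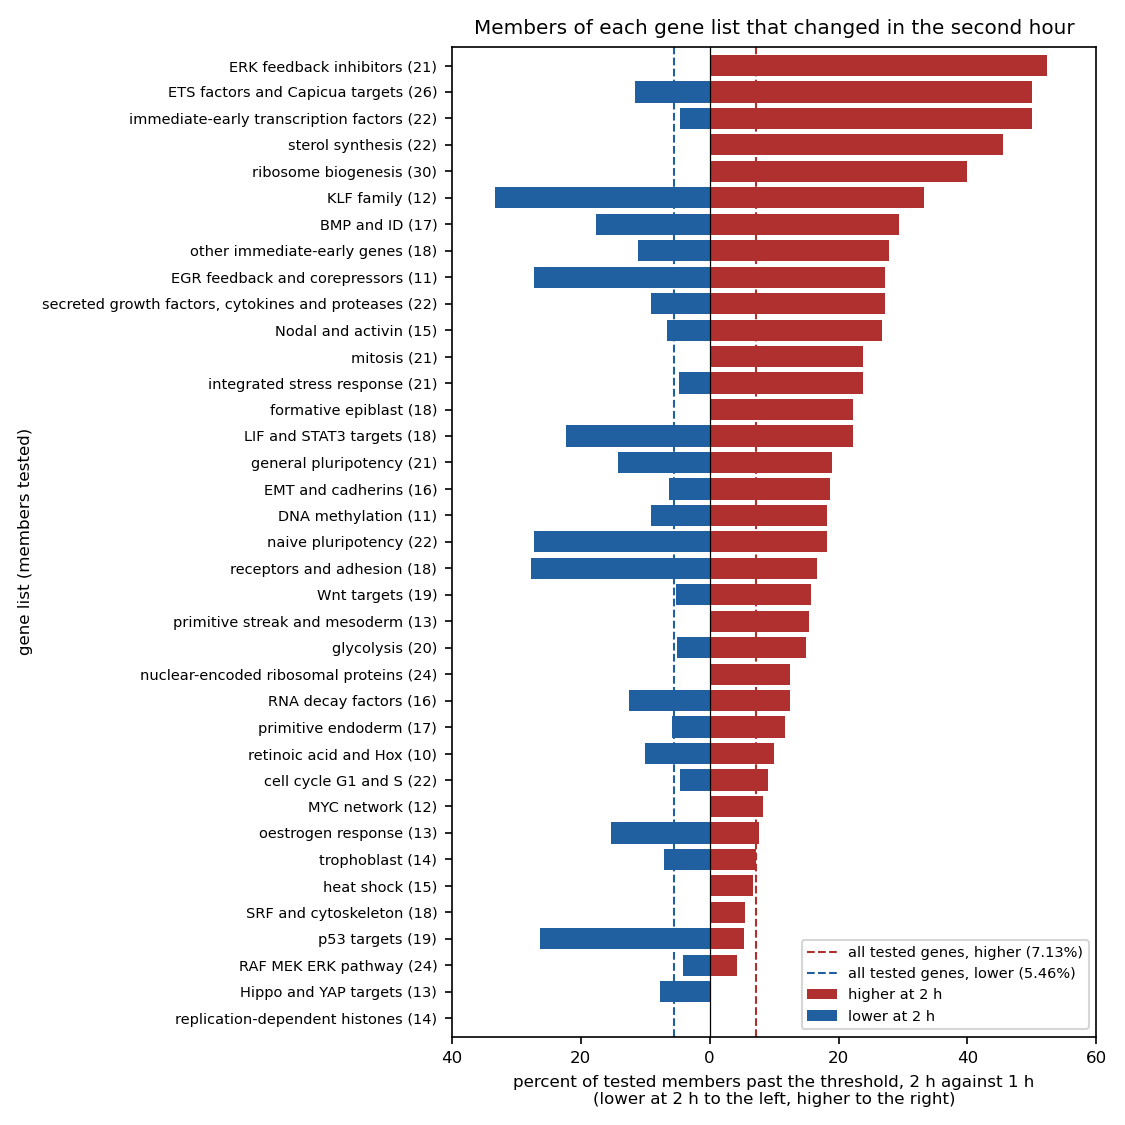
Percent of the tested members of each gene list with at least 10 tested members (y axis, number tested in brackets) that rose (right) or fell (left) from 1 h to 2 h; dashed lines mark 7.13% and 5.46%, the shares over all tested genes. Among these lists ERK feedback inhibitors have the longest bar to the right, at 52.4%. Of their 11 rises, 6 kept their calls whichever single untreated, 1 h or 2 h library was dropped.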

How the data were processed

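RNA-sequencing counts of 12 libraries, 3 clones at 4 times, were analysed. The counts are whole numbers of reads per gene symbol as deposited. The submitters' processing notes name STAR, featureCounts, DESeq and mm10. The annotation, strand setting and multimapping rule, not given in the sources used here, bear on overlapping and near-identical genes. Genes were filtered with filterByExpr (minimum count 10, minimum total 15), which left 14185 of 25897 symbols, holding 99.9662% of the counts. The rest of the analysis used R 4.3.3 and edgeR 4.0.16: TMM scaling, glmQLFit and glmQLFTest (two-sided) on all 12 libraries with time and clone as terms (6 residual degrees of freedom), and Benjamini-Hochberg adjustment over all tested genes at 0.05. SE is approximate: the size of a log2 change over the root of its F statistic. CPM values are on TMM-scaled library sizes.

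The clone letter pairs libraries because the same clone was sampled at each time. Deviations from the group means correlated at 0.184 to 0.684 in all 18 same-clone pairs and at −0.568 to −0.024 between clones. Taking deviations from the mean of 3 libraries itself pushes the values between clones to be negative, so their sign adds nothing to the pairing. In every pair of the 12 libraries, of any time and clone, the counts differed beyond counting noise (15.2 to 255 chi-square units per degree of freedom). None was therefore counted as a repeat. With 24213641 to 31435301 counts per library, genes under 1 CPM rest on few reads. Changes per clone are differences of log2 CPM with a prior count of 2.

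Genes named are the 10 largest rises and falls, the 8 largest of each class, a fixed panel, and members of the gene lists whose counts are given. The largest were picked among genes called in the fit of all libraries, with a change of equal sign in each of the 3 clones. No clone was tested on its own. These genes also averaged at least 1 CPM, and predicted, clone-named and pseudogene symbols were left out. The members, classes and gene lists were chosen with earlier results of these data known. Alternatives were no clone block, DESeq2 1.42.0 size factors and test, limma 3.58.1 voom, other filters, fewer libraries and a 1.5-fold test. Each clone, and each single library of untreated cells, 1 h or 2 h, was also left out. Libraries of 4 h were dropped only as a group or with their clone. Exon overlap and coordinates come from GENCODE M21 (GRCm38, the build of mm10), promoters from RefSeq. A few genes that the naming rule covers are not reported here.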

Additional observations from a re-analysis of the deposited data

How the results depend on the processing

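Of the second-hour counts, RLE size factors, DESeq2, limma-voom and both filters on low counts gave 966 to 1281 rises and 741 to 890 falls, of which 923 to 1011 and 699 to 758 were called in the main counts too. The replicate block and single clones moved them most. Without the replicate block, which pairs libraries by clone, 8 genes rose and 1 fell in the second hour, 11 rose and 0 fell in the first, 0 differed between hours, 1 continued upward, 0 continued downward, 0 reversed after a rise, 0 reversed after a fall and 8 were first called in the second hour. Without the 4 h libraries 1313 genes fell, 352 fell in the first hour, 41 differed between hours, 10 started upward and 2 downward, 89 continued downward, and 21 and 11 reversed after a rise and after a fall. The 6 libraries of 1 h and 2 h alone gave 2166 rises and 1869 falls, and the test against 1.5-fold 81 and 3. DESeq2 called 89 differences between hours, 22 upward and 10 downward starts, and 231 and 58 continuations upward and downward. Without a filter on low counts 35 genes differed between hours, 4 started upward and 2 reversed after a fall. The cause of these shifts was not tested.

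Over the fits that left out 1 library or 1 clone, rises ranged from 0 to 2103 and falls from 0 to 1901 in the second hour, and from 12 to 1109 and 0 to 587 in the first. Differences between hours ranged from 3 to 224, upward starts from 0 to 68, downward starts from 0 to 36, continuations from 0 to 540 upward and 0 to 190 downward, reversals from 0 to 51 after a rise and 0 to 19 after a fall, and genes first called in the second hour from 0 to 3100. Leaving out clone c, which also leaves fewer libraries, cost the most calls: all 169 named genes with a call lost it. Some of these ended near the threshold, such as Bmp4 and Sox8, both with an adjusted edgeR p of 0.0552. Why they were lost was not tested. Of 169 named genes with a call, 51 kept it whichever single untreated, 1 h or 2 h library was left out and 5 without the block.

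Signs turned for 7 genes that had no call and a change near 0. Esr1 came to −0.0015 without a filter and −0.0047 at a mean of at least 1 CPM, and Setd1b to −0.0021 without the block, −0.0014 without a filter, −0.0052 at that mean and −0.00085 by limma-voom. With libraries left out, Esr1 ranged from −0.066 to 0.12, Id3 from −0.11 to 0.22, Ier3 from −0.060 to 0.083, Junb from −0.19 to 0.24, Pim3 from −0.022 to 0.14, Setd1b from −0.066 to 0.082 and Sox2 from −0.15 to 0.074.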

Other observations

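Zinc finger genes with a numbered Zfp symbol were singled out after their values were seen. Of 325 tested, 29 (8.92%) fell and 21 (6.46%) rose in the second hour by edgeR, against 5.46% and 7.13% of all tested genes, and 42 fell and 16 rose in the first hour, where 1.58% and 5.41% of all tested genes did. Their median log2 change was −0.105 in the second hour and −0.185 in the first, and the second-hour median by clone was −0.022, −0.11 and −0.13 in clones a, b and c. Of the 36 genes that fell in both hours, 6 were of this kind: Zfp40, Zfp60, Zfp74, Zfp182, Zfp239 and Zfp799. At 4 h 105 were below untreated cells and 55 above, against 25.7% and 26.2% of all tested genes. Many Zfp genes resemble each other in sequence, and how reads shared between them were counted is not stated in the labels. The number that fell in the second hour ranged from 0 to 79 over the other settings and omissions.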
